A study of Mus musculus with 11 samples.

Results

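The genes described here encode ligands and receptors of the interleukin-6 (IL-6) and leukaemia inhibitory factor (LIF) family. The 9 members were Il6, Lif, Clcf1 and Cntf among the ligands and Lifr, Il6st, Il6ra, Osmr and Il11ra1 among the receptor chains. They were chosen by symbol from the 24421 gene symbols that both count tables hold, and all 9 were found. RNA was sequenced from mice that carried Hic1-CreERT2, a Cre recombinase activated by tamoxifen and expressed from Hic1, and a tdTomato reporter. Tested mice were WT/flox (WTlFlox in the labels), with 1 Ctnnb1 allele whose exon 3 lies between loxP sites, and the others were WT at Ctnnb1. Mesenchymal progenitors, the stromal cells of skeletal muscle also called fibro/adipogenic progenitors, were sorted from hindlimb as CD45-, CD31-, Sca1+, tdTomato+ and alpha7- cells. They gave 3 WT/flox libraries (74A1 and 72B7 at day 14 after tamoxifen, 74A3 at day 56) and 3 WT libraries at day 14 (72B8, 74A2 and 73C3). Lysate of whole tibialis anterior muscle gave 3 WT/flox libraries (71B3, 71B4 and 71B5) and 2 WT libraries (73A5 and 73A7), all at day 56. The muscle was at rest in every group, and the sources used here give no ages. All mice had received tamoxifen. Because the Hic1 locus drives the Cre, recombined cells are mixed with muscle fibres and other cell types in the lysates.

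Cytokines of this family signal through shared receptor chains. IL-6 and interleukin-11 bind a private alpha chain (Il6ra, Il11ra1) and then pair 2 copies of the common chain gp130, encoded by Il6st. LIF, cardiotrophin-like cytokine factor 1 (Clcf1) and ciliary neurotrophic factor (Cntf) pair gp130 with the LIF receptor chain Lifr rather than with another gp130. Cntf has an alpha chain too, Cntfr, and oncostatin M uses Osmr or Lifr beside gp130. Every such complex activates Janus kinases and the transcription factor STAT3, and STAT3 induces Socs3, an inhibitor that binds gp130. In muscle, stromal progenitors are known as a source of IL-6 after injury, and LIF and IL-6 act on muscle stem cells and fibres. Removal of Ctnnb1 exon 3, which holds the phosphorylation sites for degradation, leaves a stable beta-catenin that activates target genes through TCF/LEF factors. The comparisons ask which of these cytokine genes differ in cells with that allele and in the muscle around them.

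Total counts ran from 13119843 to 16805238 in progenitor libraries and from 16892158 to 19449227 in lysates. Levels are CPM, counts relative to the effective library size, TMM-scaled within each material unless both materials are compared. Ctnnb1 itself averaged 402 ± 23.1 CPM in WT/flox and 481 ± 38.3 CPM in WT progenitors (SD, n = 3 each), and counts summed over the gene cannot show whether 1 exon was lost. Progenitor libraries held Pdgfra at 1096 to 1334 CPM in WT/flox and 1552 to 1833 CPM in WT. Ptprc, which encodes CD45, stayed at 0.227 to 0.44 CPM in WT/flox and 0.151 to 0.595 CPM in WT progenitors, and Pax7, of muscle stem cells, had at most 1 count in each. In the lysates the 12 myofibre markers took 14.2% to 17.8% of counts in WT/flox and 17.5% to 19.2% in WT, although the authors' sample table also lists these libraries as FAPs. Library 74A3 differs from every other progenitor library in day, and from the WT libraries in genotype as well. Values without it are given where they change a call.

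The receptor gene on which the progenitor comparison turns, Lifr (ENSMUSG00000054263), lies on the forward strand of GRCm38 chromosome 15 from 7090614 to 7197489. RefSeq lists 2 start sites for it, in GRCm38.p6 as the ligand windows that follow. The 250 bases upstream of each are shown because Lifr was the member whose transcript level changed, with capitals for motif matches. The first start is preceded by chr15:7129322-7129571 and the second by chr15:7140292-7140541, both on the forward strand, 5′ to 3′.
Lifr start 1: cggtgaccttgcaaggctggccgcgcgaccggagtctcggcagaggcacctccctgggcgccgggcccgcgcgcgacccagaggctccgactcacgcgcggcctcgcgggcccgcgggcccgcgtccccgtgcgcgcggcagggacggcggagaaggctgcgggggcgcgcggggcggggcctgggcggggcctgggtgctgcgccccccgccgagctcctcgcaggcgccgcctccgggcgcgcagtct
Lifr start 2: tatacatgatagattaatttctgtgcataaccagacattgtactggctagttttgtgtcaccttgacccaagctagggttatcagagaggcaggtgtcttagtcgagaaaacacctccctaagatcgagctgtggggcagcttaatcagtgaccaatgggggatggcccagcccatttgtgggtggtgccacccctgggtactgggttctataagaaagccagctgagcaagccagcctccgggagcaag
The first window is 82.4% G and C, and the second is 50.8%. Neither holds the TCF/LEF letters CTTTGAT, the STAT letters TTCNNNGAA, the AP-1 letters TGANTCA or the NF-kB letters GGGA, NN and TTCC in a row, on either strand (N is any base). Over 32851 RefSeq windows of the same length, 3.21% hold the TCF/LEF letters, 7.02% the STAT letters, 6.75% the AP-1 letters and 1.21% the NF-kB letters, so a window without them is the usual case. The windows of the ligands Il6 (chr5:30012864-30013113) and Lif (chr11:4257318-4257567), both forward strand, are shown for comparison, since each holds a match in capitals.
Il6: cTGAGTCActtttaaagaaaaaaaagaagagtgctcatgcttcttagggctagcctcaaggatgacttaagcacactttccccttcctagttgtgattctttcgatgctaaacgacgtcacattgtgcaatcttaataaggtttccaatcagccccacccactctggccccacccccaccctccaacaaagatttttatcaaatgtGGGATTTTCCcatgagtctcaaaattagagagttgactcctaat
Lif: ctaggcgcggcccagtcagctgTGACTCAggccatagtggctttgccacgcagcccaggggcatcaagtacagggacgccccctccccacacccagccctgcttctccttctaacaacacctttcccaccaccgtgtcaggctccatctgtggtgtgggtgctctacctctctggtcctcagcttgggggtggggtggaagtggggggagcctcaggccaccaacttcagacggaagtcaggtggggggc
In Il6 the capitals mark TGAGTCA (AP-1), which begins 249 bases before the start, and GGGATTTTCC (NF-kB), which begins 44 bases before it. In Lif they mark TGACTCA (AP-1), 228 bases before the start. Matches of short letters are descriptions of the sequence and were not tested as binding sites.

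In progenitors, Lifr was the 1 member that changed with genotype, and it fell. Its level was 51.2 CPM in 74A1, 48.5 CPM in 72B7 and 59.8 CPM in 74A3, the WT/flox libraries, against 220.2 CPM in 72B8, 231.6 CPM in 74A2 and 144.3 CPM in 73C3, the WT libraries. The groups do not overlap, as was true of 16.9% of all genes tested, and the lowest WT library stood far above the highest WT/flox library. The means were 53.2 ± 5.91 CPM in WT/flox and 198.7 ± 47.4 CPM in WT progenitors (SD, n = 3 each), which is 3.74-fold lower in WT/flox. The log2 fold change was -1.90 (SE 0.21, 95% interval -2.31 to -1.49), with an adjusted p of 9.25e-04 in edgeR's quasi-likelihood test. Lifr ranked 63 by p among the 12392 genes tested. It rests on 2146 counts summed over the WT/flox libraries and 8885 over the WT libraries. Without the day 56 library 74A3 the log2 fold change was -1.99 (adjusted p = 0.00579).

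Of the 9 members, 8 passed the filter on low counts in progenitors, all but Cntf, and 1 of these was called, at a threshold of 0.05 on the adjusted p. Over all genes tested 3.66% were called, 2.34% as higher and 1.32% as lower in WT/flox. The median log2 fold change of the tested members was -0.37, against 0.00 for all genes tested, with 3 members above 0 and 5 below.

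**Figure D1:**
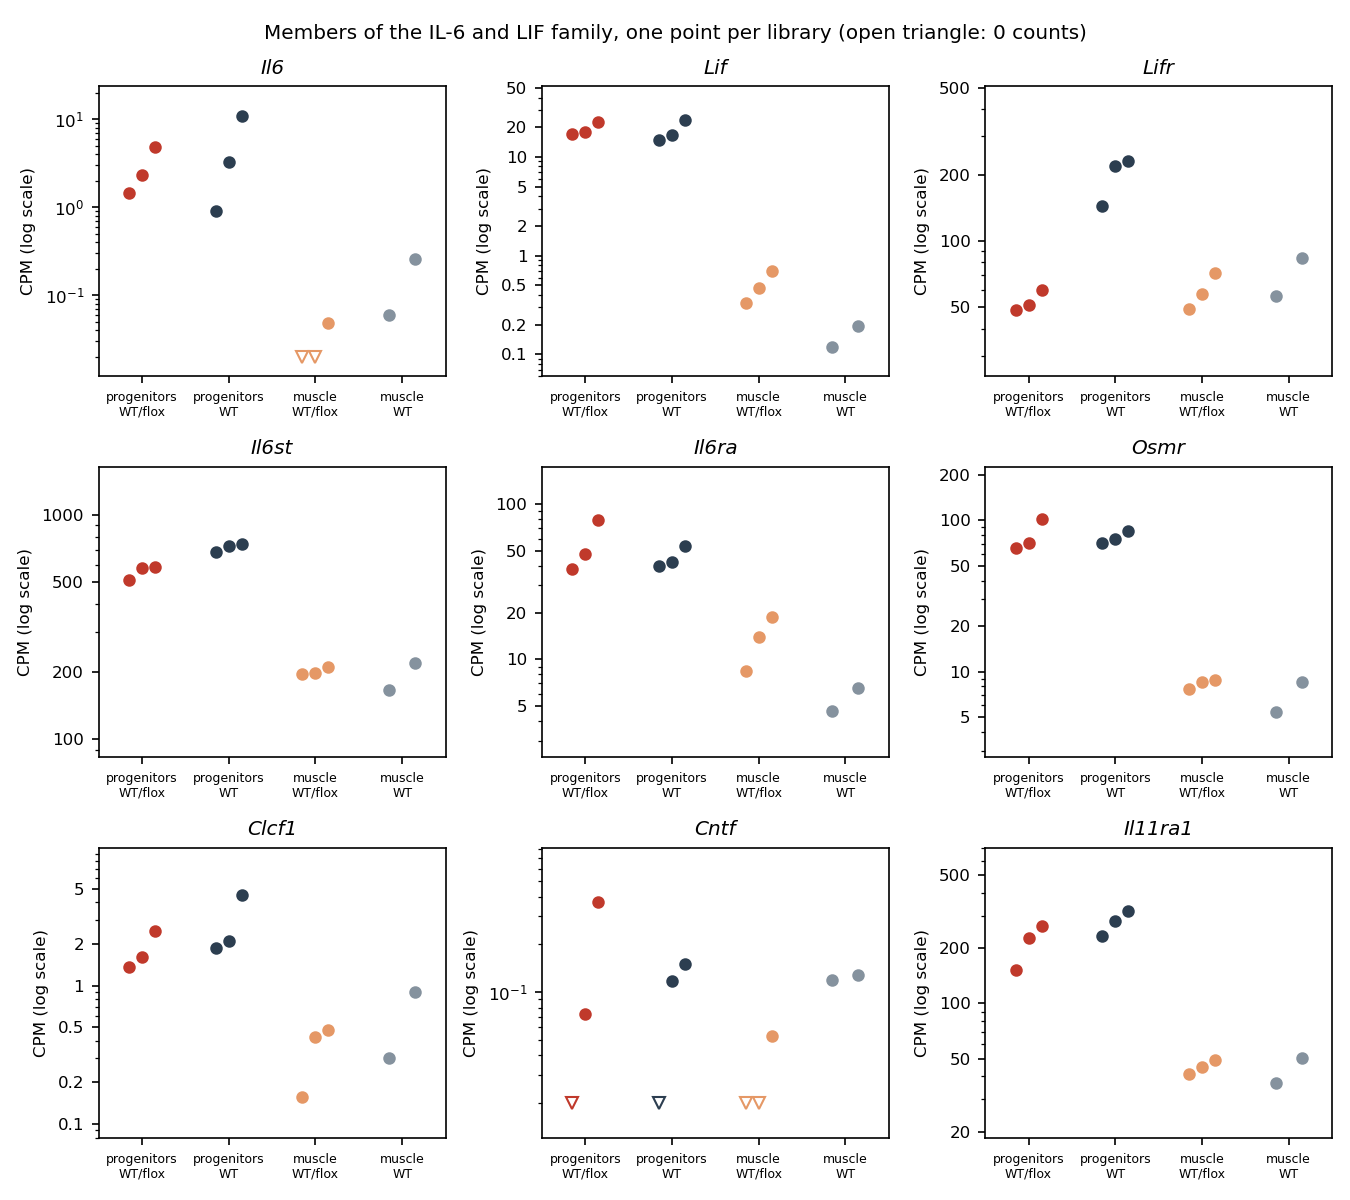
Level of each of the 9 members in CPM (log scale, 1 point per library in ascending order within a group, open triangle for 0 counts) in WT/flox and WT progenitors and WT/flox and WT muscle lysates. Lifr in WT/flox progenitors (48.5 to 59.8 CPM) lies below every WT progenitor library (144.3 to 231.6 CPM), while Il6 and Lif overlap between genotypes in progenitors and are near 0 in muscle.

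The common chain Il6st, through which every member signals, had the highest mean level per length of the members in progenitors. It reached 577 CPM in 74A1, 513 CPM in 72B7 and 583 CPM in 74A3, against 743 CPM in 72B8, 728 CPM in 74A2 and 687 CPM in 73C3. The groups do not overlap, as was true of 16.9% of all genes tested. The log2 fold change of -0.37 (SE 0.17, 95% interval -0.70 to -0.04) missed the threshold in edgeR (adjusted p = 0.419). That interval uses a normal quantile and is narrower than the test implies, as the unadjusted p in edgeR was not below 0.05. As a ratio of CPM per kb of exon within each library, Lifr per Il6st was 0.0914 to 0.106 in WT/flox and 0.217 to 0.328 in WT progenitors. The ratio does not overlap between genotypes, so Lifr differed by more than Il6st did.

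Osmr, the chain that oncostatin M pairs with gp130, overlapped between genotypes. Its levels were 70.5, 65.7 and 102 CPM in WT/flox libraries 74A1, 72B7 and 74A3, against 84.8, 75.1 and 70.6 CPM in WT libraries 72B8, 74A2 and 73C3. The log2 fold change was 0.05 (SE 0.19, 95% interval -0.33 to 0.43, adjusted p = 0.996 in edgeR), and it turned negative (-0.01) when libraries were scaled by their totals alone. As a ratio of CPM per kb of exon, Lifr per Osmr was 0.658 to 0.829 in WT/flox and 2.30 to 3.47 in WT progenitors, again without overlap.

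The private alpha chains were not called. Il6ra, the IL-6 binding chain, had 38.3, 48.1 and 79.2 CPM in WT/flox libraries 74A1, 72B7 and 74A3, against 53.7, 40.1 and 42.6 CPM in WT libraries 72B8, 74A2 and 73C3. The day 56 library 74A3 held the highest value, and the log2 fold change of 0.28 (SE 0.26, adjusted p = 0.866 in edgeR) was -0.07 without it. Il11ra1, the interleukin-11 binding chain, had 226, 264 and 151 CPM in WT/flox libraries 74A1, 72B7 and 74A3, against 232, 282 and 319 CPM in WT libraries 72B8, 74A2 and 73C3. Its log2 fold change was -0.38 (SE 0.23, adjusted p = 0.647 in edgeR), and the libraries overlap. Its values are uncertain because it overlaps Galt on the same strand and has near-identical copies, Il11ra2, Gm13305 and Gm2002, each with 0 counts in these tables.

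The ligand Il6, an inflammatory cytokine, varied more among libraries of 1 genotype than between genotypes. It had 4.84 CPM in 74A1, 2.36 CPM in 72B7 and 1.44 CPM in 74A3 (WT/flox), against 0.903 CPM in 72B8, 3.24 CPM in 74A2 and 10.9 CPM in 73C3 (WT). The WT libraries enclose all the WT/flox values. The log2 fold change of -0.81 (SE 0.76, 95% interval -2.31 to 0.68, adjusted p = 0.872 in edgeR) was 0.46 without library 73C3. Lif, the ligand of Lifr, had 18.0 CPM in 74A1, 17.2 CPM in 72B7 and 22.7 CPM in 74A3, against 23.8 CPM in 72B8, 14.7 CPM in 74A2 and 16.9 CPM in 73C3. These groups overlap as well, with a log2 fold change of 0.07 (SE 0.21, 95% interval -0.35 to 0.49, adjusted p = 0.992 in edgeR) that was -0.07 without 74A2 and -0.06 without 74A3.

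The other ligands were scarce. Clcf1, which signals through Lifr and gp130, had 22, 34 and 18 counts in WT/flox libraries 74A1, 72B7 and 74A3 and 28, 68 and 32 counts in WT libraries 72B8, 74A2 and 73C3. Its log2 fold change was -0.63 (SE 0.43, adjusted p = 0.728 in edgeR), and an overlapping gene model on its strand makes the values uncertain. Cntf had 1, 5 and 0 counts in 74A1, 72B7 and 74A3 and 2, 0 and 2 counts in 72B8, 74A2 and 73C3, too few to test. It lies within Zfp91 on the same strand, which was at 73.4 ± 3.19 CPM in WT/flox and 68.5 ± 6.45 CPM in WT progenitors, so a count of this size cannot be assigned to Cntf with certainty.

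**Figure D2:**
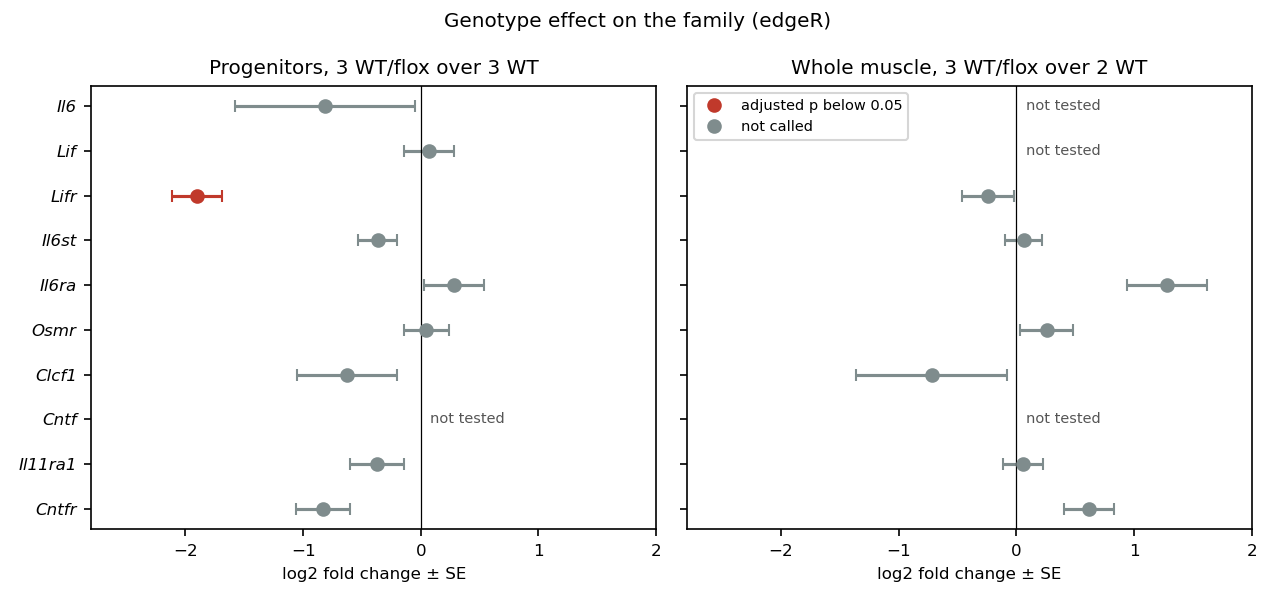
Log2 fold change of WT/flox over WT with its SE for the 9 members and Cntfr, in progenitors (left) and whole muscle (right), with red for an adjusted p below 0.05 in edgeR. Lifr (-1.90) in progenitors is the 1 red point, and none is red in muscle.

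Among the other receptor genes of the family, 2 of 6 were tested and 0 were called by edgeR. Cntfr, the alpha chain for Cntf, had 20.2, 37.0 and 22.2 CPM in 74A1, 72B7 and 74A3, against 48.6, 49.7 and 42.9 CPM in 72B8, 74A2 and 73C3. These values do not overlap, as for 16.9% of all genes tested. The log2 fold change of -0.83 (SE 0.23) missed the threshold (adjusted p = 0.0942 in edgeR), where DESeq2 called Cntfr lower (adjusted p = 0.0211). In all, Cntfr was called in 3 of 13 alternative settings or omissions of 1 library.

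**Figure D3:**
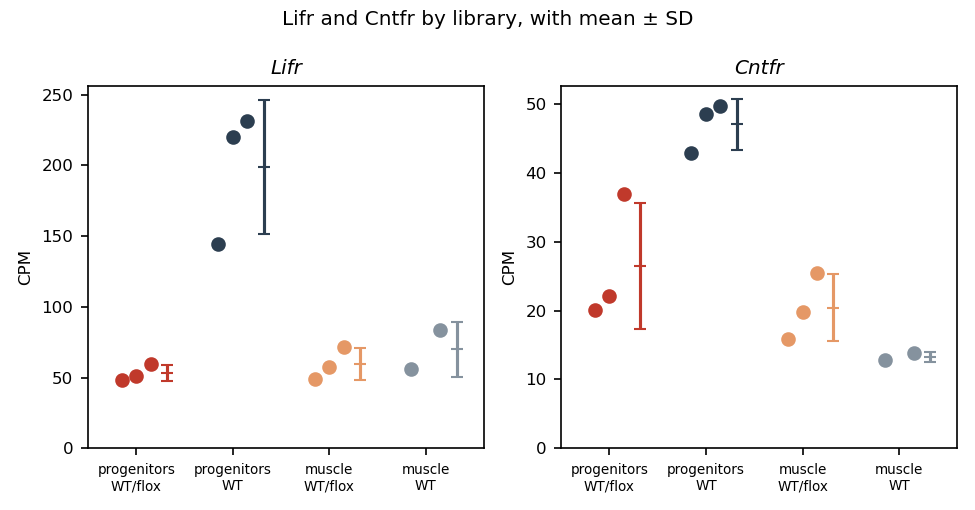
CPM of Lifr and Cntfr in each library, with the mean and SD beside the points, for WT/flox and WT progenitors and WT/flox and WT muscle. In progenitors the WT/flox points of both genes lie below the WT points, and in muscle Lifr overlaps between genotypes.

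Downstream of the receptors, calls in progenitors are set against the 3.66% of all genes called. Of 10 kinases, STATs and adaptors tested, 0 were called in edgeR or DESeq2, 0 had an unadjusted p below 0.05, and the median log2 fold change was 0.04. Stat3, the main transcription factor of the pathway, averaged 193.6 ± 25.3 CPM in WT/flox and 152.3 ± 5.59 CPM in WT (log2 fold change 0.35, SE 0.16, adjusted p = 0.437 in edgeR), and Jak1 averaged 315 ± 42.2 CPM in WT/flox and 345 ± 18.9 CPM in WT. Of 12 feedback inhibitors, 11 were tested and 0 called by edgeR or DESeq2, with 1 at an unadjusted p below 0.05. Socs3 had 1091 CPM in 74A1, 763 CPM in 72B7 and 477 CPM in 74A3, against 237 CPM in 72B8, 933 CPM in 74A2 and 1195 CPM in 73C3. Its range within the WT group was wider than any difference between genotypes (log2 fold change -0.02, SE 0.52, adjusted p = 0.999 in edgeR), and the sign of the change turned under limma voom (0.21).

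Of 20 genes listed as STAT3 targets, 18 were tested, 1 rose and 1 fell, with a median log2 fold change of -0.12. Ccnd1, a cell cycle cyclin that is also a textbook TCF/LEF target, rose (log2 fold change 2.04, SE 0.32, adjusted p = 0.00743 in edgeR), at 123 ± 33.5 CPM in WT/flox and 29.98 ± 11.7 CPM in WT. Ccl2, a monocyte attractant, fell (log2 fold change -1.61, SE 0.27, adjusted p = 0.0089 in edgeR), at 4.45 ± 0.116 CPM in WT/flox and 13.5 ± 4.92 CPM in WT. The most abundant of the list were not called, namely Junb at 830 ± 260 CPM in WT/flox and 1064 ± 475 CPM in WT, and Cebpd at 510 ± 103 CPM in WT/flox and 538 ± 182 CPM in WT. Of 14 genes listed as regulators of Il6, inducers and inhibitors alike, 13 were tested and 0 called by edgeR. Of these, 2 had an unadjusted p below 0.05, and the median log2 fold change was -0.22. DESeq2 called 1 of them, Tlr4, as lower.

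Of 4 genes for receptor shedding, Adam17 fell. It encodes the protease that releases the IL-6 receptor ectodomain from cells. Adam17 had 87.8, 86.5 and 98.0 CPM in WT/flox libraries 74A1, 72B7 and 74A3, against 157, 142 and 133 CPM in WT libraries 72B8, 74A2 and 73C3. The log2 fold change was -0.67 (SE 0.15, adjusted p = 0.0403 in edgeR), and the call was lost without 74A3 (adjusted p = 0.112) and in most other omissions of 1 library. Lifr, Ccnd1 and Ccl2 were called without 74A3.

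Transcripts of the early response that cell dissociation induces varied among the progenitor libraries. The 21 genes of that list took 1.54% of counts in 74A1, 1.14% in 72B7 and 1.003% in 74A3, against 0.879% in 72B8, 1.95% in 74A2 and 1.78% in 73C3. Library 72B8 was lowest in this share, in Il6 and in Socs3, which is itself on the list, and highest in Lif. Their part in the ligand values was not tested. Lifr in those WT libraries was 220.2 CPM in 72B8, 231.6 CPM in 74A2 and 144.3 CPM in 73C3, and the part of the dissociation response in it was not tested. The 9 endothelial markers took 0.0452% to 0.0483% of counts in WT/flox and 0.0590% to 0.0694% in WT progenitors. Tek was the 1 called lower and Kdr the 1 called higher. Of the 9, 6 had a log2 fold change below 0 and 3 above, with a median of -0.23. Tek averaged 152 CPM in WT/flox and 377 CPM in WT, while Pecam1 overlapped between genotypes. The 9 mural markers took 0.0495% to 0.0537% in WT/flox and 0.0598% to 0.0799% in WT, with Cspg4 the 1 that fell. The 10 progenitor markers took 6.47% to 7.32% in WT/flox and 4.83% to 5.29% in WT, with Col1a1 the 1 called, as higher. Most of this share was Col3a1, Dcn and Col1a1, at 24621, 20213 and 16546 CPM in WT/flox and 18225, 14743 and 7385 CPM in WT. Of the 10, 7 had a log2 fold change above 0 and 3 below. Pdgfra, Pi16 and Hic1 were those below, and Pdgfra averaged 1235 CPM in WT/flox and 1712 CPM in WT. The share therefore does not measure progenitor content. The 10 immune markers took at most 0.00199% in WT/flox and 0.00167% in WT. Myofibre markers took 0.00198% to 0.00270% in WT/flox and 0.00209% to 0.0135% in WT, muscle stem cell markers 0.0119% to 0.0139% and 0.0123% to 0.0191%, glial markers 0.0537% to 0.0626% and 0.0509% to 0.0648%, and tenocyte markers 0.167% to 0.214% and 0.113% to 0.160%. Of these 4 lists, edgeR called 3 tenocyte markers, Mkx and Thbs4 as higher and Cilp2 as lower. Of the 7 tenocyte markers, 5 had a log2 fold change below 0 and 2 above, with a median of -0.65. Most of the tenocyte share was Thbs4, at 1811 ± 194 CPM in WT/flox and 969 ± 111 CPM in WT. In bulk RNA, fewer cells of a type and less RNA per cell cannot be told apart, and the part of these markers in the fall of Lifr was not tested.

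**Figure D4:**
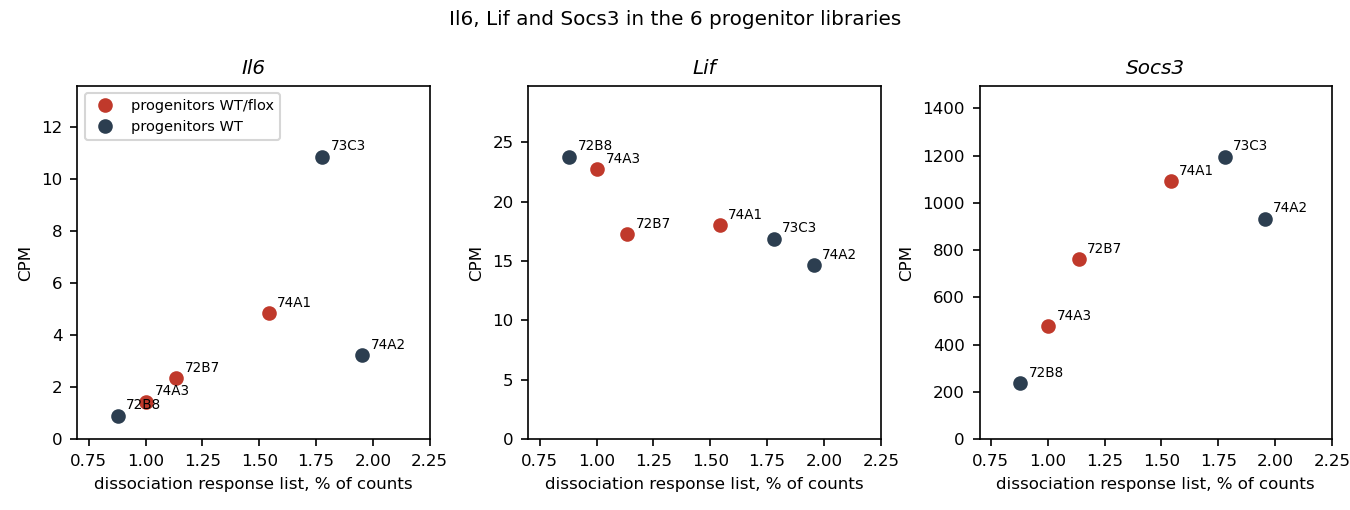
CPM of Il6, Lif and Socs3 in the 6 progenitor libraries against the percent of counts taken by the 21 dissociation response genes, which include Socs3, with WT/flox in red and WT in dark blue. WT library 72B8 combines the lowest share (0.879%) with the lowest Il6 (0.903 CPM) and Socs3 (237 CPM). The WT/flox shares (1.003% to 1.54%) lie between it and the other WT libraries, 73C3 (1.78%) and 74A2 (1.95%).

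The genes whose levels followed Lifr most closely over the 6 progenitor libraries, by Pearson correlation of log2 CPM among 10922 genes, were Abca8b (r = 0.997), Ret (r = 0.997) and Rgmb (r = 0.996). The libraries share the genotype split, and the correlations are a description. Ret, a receptor tyrosine kinase, averaged 35.2 ± 8.68 CPM in WT/flox and 264 ± 98.3 CPM in WT. Abca8b, a membrane transporter, averaged 425 ± 19.6 CPM in WT/flox and 928 ± 122 CPM in WT. Rgmb, a co-receptor of bone morphogenetic proteins, averaged 95.2 ± 2.37 CPM in WT/flox and 173.7 ± 19.7 CPM in WT.

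In whole muscle no member was called, among the 6 that passed the filter, Lifr, Il6st, Il6ra, Osmr, Clcf1 and Il11ra1. Over all 12654 genes tested 0.727% were called by edgeR, 0.514% as higher and 0.213% as lower in WT/flox. The median log2 fold change of the 6 members was 0.06, against 0.00 for all genes tested. Of the 6 members, 1 had an unadjusted p below 0.05, and DESeq2 called the same gene, Il6ra. Il6ra had 8.43 CPM in 71B3, 14.0 CPM in 71B4 and 18.7 CPM in 71B5 (WT/flox), against 6.58 CPM in 73A5 and 4.67 CPM in 73A7 (WT). The WT/flox libraries all lie above the WT libraries, as groups do not overlap for 25.3% of all genes tested. The log2 fold change was 1.28 (SE 0.34, 95% interval 0.61 to 1.95), 2.43-fold, with an adjusted p of 0.220. It passed without 71B3 (adjusted p = 0.0473), and the level differs among the WT/flox libraries themselves.

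Lifr in muscle had 48.9, 57.7 and 71.6 CPM in WT/flox libraries 71B3, 71B4 and 71B5, against 83.8 and 56.4 CPM in WT libraries 73A5 and 73A7. The groups overlap, and the log2 fold change was -0.24 (SE 0.22, 95% interval -0.67 to 0.20, adjusted p = 0.831 in edgeR). Il6st had 196, 198 and 209 CPM in 71B3, 71B4 and 71B5, against 219 and 166 CPM in 73A5 and 73A7 (log2 fold change 0.06, SE 0.16, adjusted p = 0.953 in edgeR). Osmr was at 7.74 to 8.85 CPM in WT/flox and 5.44 to 8.56 CPM in WT, and Il11ra1 at 41.4 to 49.1 CPM in WT/flox and 36.8 to 50.1 CPM in WT. Both overlap between genotypes.

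The ligands were at very low counts in resting muscle. Il6 had 0, 0 and 1 counts in WT/flox libraries 71B3, 71B4 and 71B5 and 1 and 4 counts in WT libraries 73A5 and 73A7. Summed over libraries, the ratio of WT/flox to WT was 0.110 with an exact 95% interval of 0.00233 to 0.985, which covers counting error only. Lif had 9, 13 and 7 counts in 71B3, 71B4 and 71B5, against 2 and 3 counts in 73A5 and 73A7, a summed ratio of 3.20 (exact 95% interval 1.22 to 10.6, counting error only). Neither passed the filter, so neither was tested in edgeR. Clcf1 had 3, 8 and 10 counts in WT/flox and 5 and 14 counts in WT libraries (log2 fold change -0.72, SE 0.64, adjusted p = 0.823 in edgeR). Cntf had 0, 1 and 0 counts in WT/flox and 2 and 2 counts in WT libraries.

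Of the other pathway genes tested in muscle, edgeR called 0 of 1 receptor, 0 of 10 kinases, STATs and adaptors, 0 of 12 feedback inhibitors, 0 of 4 shedding genes, 0 of 17 STAT3 targets and 0 of 12 regulators of Il6. An unadjusted p below 0.05 was reached by 1, 1, 3, 1, 1 and 2 genes of these lists in that order, and Socs3 was the 1 gene that DESeq2 called. Ctf1, the cardiotrophin ligand of Lifr, was the leading family ligand of the tissue, at 15.1 ± 0.755 CPM in WT/flox (n = 3) and 13.7 ± 0.437 CPM in WT (n = 2). Socs3 had 6.11, 6.61 and 11.6 CPM in 71B3, 71B4 and 71B5, against 2.51 and 3.46 CPM in 73A5 and 73A7. It does not overlap between genotypes, as for 25.3% of all genes tested in muscle. Its log2 fold change was 1.44 (SE 0.34, adjusted p = 0.145 in edgeR), where DESeq2 gave an adjusted p of 0.00907. Cntfr was at 15.9 to 25.5 CPM in WT/flox and 12.8 to 13.8 CPM in WT (adjusted p = 0.365 in edgeR).

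Progenitor markers differed in their summed level between the lysate genotypes. The 10 progenitor markers took 0.152% to 0.172% of counts in WT/flox and 0.0739% to 0.111% in WT muscle, and 0 of the 10 were called by edgeR, with 4 at an unadjusted p below 0.05. The 10 immune markers took 0.00880% to 0.0129% in WT/flox and 0.00369% to 0.0150% in WT, and the dissociation list took 0.0750% to 0.0887% in WT/flox and 0.0797% to 0.110% in WT. Their part in the values of Il6ra and Lif was not tested. Animal IDs share a first part within each lysate genotype and differ between genotypes, and the labels do not say what it marks, so whatever it stands for and genotype cannot be told apart.

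Progenitors and whole muscle were then compared within each genotype in 1 fit over the 11 libraries, in which material and RNA kit change together. The lysates are all of day 56 and from males, while the progenitors are of day 14 apart from 74A3 and include 1 female in each genotype, 74A1 and 74A2, so day and sex differ in part with material. In WT, 8 members were tested and all 8 were higher in progenitors than in muscle, where 76.1% of all genes were called, 38.6% as higher and 37.5% as lower. Libraries of the materials do not overlap for each of the 8, nor for 80.9% of all genes. Their median log2 fold change was 2.28. Lif, at 15.5 ± 3.70 CPM in WT progenitors (n = 3) and 0.194 ± 0.0621 CPM in WT muscle (n = 2), had the largest log2 fold change of them, 6.27 (SE 0.43, adjusted p = 9.0e-09 in edgeR). Il6 followed at 4.45 (SE 1.17). The dissociation list took 0.879% to 1.95% of counts in WT progenitors and 0.0797% to 0.110% in WT muscle, with 19 of its 21 genes called higher in progenitors, and its part in the ligand differences was not tested. Osmr (2.88), Il6ra (2.44), Il11ra1 (2.12), Clcf1 (1.67) and Il6st (1.33) came next. Lifr had the smallest difference, 0.92 (SE 0.24, adjusted p = 0.00274), and lost its call without 73A7 (adjusted p = 0.0649). Clcf1 lost its call without 74A2 (adjusted p = 0.0758) or 73A5 (adjusted p = 0.161). The median log2 fold change of all genes was 0.09 in WT and 0.05 in WT/flox under TMM, against 0.75 and 0.58 with libraries scaled by totals alone. Of the called genes, 50.8% in WT and 50.6% in WT/flox were higher in progenitors under TMM, against 66.0% and 62.9% by totals.

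In WT/flox mice the same contrast placed Lifr on the other side. Of the 8 members tested, 7 were higher in progenitors and 1, Lifr, was lower, where 78.8% of all genes were called, 39.9% as higher and 38.9% as lower. The materials do not overlap for each of the 8, nor for 82.8% of all genes. Their median log2 fold change was 1.67. On the shared scale Lifr averaged 43.4 ± 4.54 CPM in WT/flox progenitors and 74.5 ± 14.2 CPM in WT/flox muscle (SD, n = 3 each). Its log2 fold change was -0.78 (SE 0.21, adjusted p = 0.00341 in edgeR), and it was -0.25 without a call when libraries were scaled by totals alone (adjusted p = 0.350). In WT the averages were 166 ± 33.2 CPM in progenitors and 87.6 ± 25.02 CPM in muscle. Lif (4.65), Il6 (6.34), Osmr (2.62), Clcf1 (1.72), Il11ra1 (1.62), Il6ra (1.39) and Il6st (0.85) were the members called higher.

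The difference between the genotype effects of the 2 materials was tested as an interaction, in which 0.769% of all genes were called and 0.247% as lower. Lifr was the 1 member called of 8 tested, with a log2 difference of -1.70 (SE 0.32, 95% interval -2.32 to -1.09, adjusted p = 0.0193 in edgeR). The call was lost on leaving out 72B8, 74A1, 73A7, 71B4 or 71B5 in turn, with adjusted p-values of 0.052 to 0.154, while the difference stayed between -2.03 and -1.42. The median difference over the 8 members was -0.49, against -0.07 over all genes tested. Lif (-1.62, SE 0.62) and Il6ra (-1.05, SE 0.45) had adjusted p-values of 0.407 and 0.513. Cntfr (-1.497, SE 0.34) had an adjusted p of 0.0703 in edgeR, and was called in 3 of 16 alternative settings or omissions of 1 library.

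Per kilobase of exon, Il6st and Il11ra1 had the highest group means of the members in every group, with Il6st first. Within single progenitor libraries that order did not always hold, and Il11ra1 per Il6st was 1.28 in 72B7 (WT/flox) and 1.15 in 73C3 (WT). Il11ra1 averaged 39.1 ± 10.7 CPM per kb in WT/flox and 52.6 ± 10.7 CPM per kb in WT progenitors, so the 2 chains overlap there. Il6st averaged 41.0 ± 2.66 CPM per kb in WT/flox and 54.5 ± 0.563 CPM per kb in WT progenitors, and 22.7 ± 0.768 in WT/flox and 21.7 ± 4.38 in WT muscle. Lifr ranked 3 among the 9 members in WT progenitors and in both muscle groups, and 5 in WT/flox progenitors. It averaged 4.02 ± 0.422 CPM per kb in WT/flox and 15.4 ± 3.08 CPM per kb in WT progenitors, and 6.92 ± 1.32 in WT/flox and 8.13 ± 2.32 in WT muscle. In WT/flox progenitors Osmr (5.35 ± 1.30 CPM per kb) and Il6ra (5.21 ± 1.98 CPM per kb) ranked above Lifr, with spreads that overlap it. In WT progenitors the same chains were at 5.33 ± 0.336 and 4.42 ± 0.630 CPM per kb, below every Lifr value. Among ligands, Lif averaged 3.63 ± 0.534 CPM per kb in WT/flox and 3.56 ± 0.850 CPM per kb in WT progenitors. Il6 averaged 0.969 ± 0.593 CPM per kb in WT/flox and 1.79 ± 1.94 CPM per kb in WT progenitors, where its highest library overlaps Lif.

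**Figure D5:**
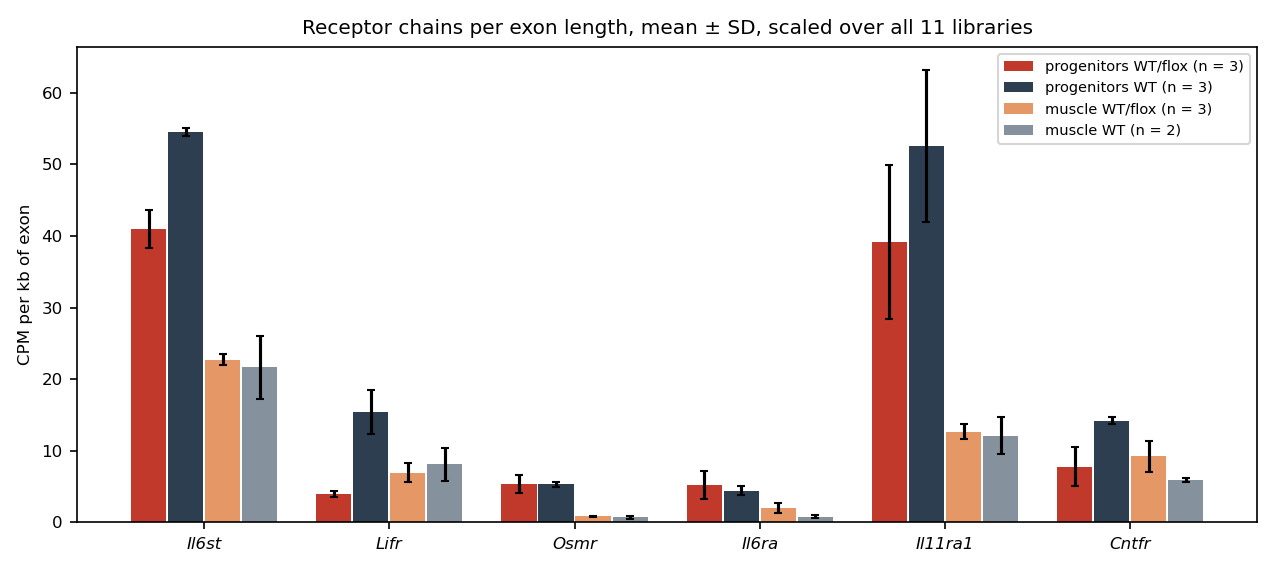
Mean level of the 5 receptor members and Cntfr in CPM per kb of exon, scaled over all 11 libraries, with SD as error bars, in WT/flox and WT progenitors (n = 3 each), WT/flox muscle (n = 3) and WT muscle (n = 2). Lifr is lowest in WT/flox progenitors (4.02 CPM per kb) and highest in WT progenitors (15.4 CPM per kb).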

How the data were processed

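RNA from sorted mesenchymal progenitors and from whole tibialis anterior muscle was made into stranded mRNA libraries and read as paired ends, per the labels' protocols. The authors deposited counts per gene symbol, in 1 table for each material. Bowtie, STAR, bcl2fastq 2.20 and mm10 are named in the submitters' processing notes. How reads were counted, and whether strand was used, is not given in the sources used here, so reads of antisense neighbours (such as Gm42809 at Il6ra) cannot be told apart. The authors' sample tables give sex and a replicate number per library; the sex matched Xist and Ddx3y in 11 of 11 libraries.

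Each table was fitted alone with edgeR 4.0.16 in R 4.3.3 (filterByExpr with a minimum count of 10, TMM, robust quasi-likelihood F test, two-sided, Benjamini-Hochberg adjustment over all genes tested, threshold 0.05). A joint fit over the 11 libraries gave the differences between materials and the interaction. The scripts were tested on simulated counts. Animal IDs differ in every library, so p-values measure the spread between animals; within a group, every pair of libraries differed beyond counting error, with 9.13 to 80.2 as chi-square over its degrees of freedom. Exact intervals cover counting error only.

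Exon lengths came from GENCODE M21 (GRCm38), and promoter windows from RefSeq (GRCm38.p6). No promoter entry was used for Clcf1. One gene of the pathway lists is not reported here. The authors' replicate numbers were not used as pairs in the main fits. In progenitors, 74A1 and 74A2 share number 1, sex and the first part of the ID, as 72B7 and 72B8 do with number 2. Number 3 joins 74A3 and 73C3, which differ in ID and day. Correlations of deviations within these numbers were 0.29, 0.03 and -0.13 in progenitors, and -0.019 and -0.475 in lysates. Deviations in groups of 2 or 3 libraries depend on each other, so these values cannot decide whether libraries were paired. Alternatives were RLE scaling, library totals, no low-count filter, DESeq2 1.42.0, limma 3.58.1 voom, sex as a covariate in progenitors, and each library left out. A replicate block and counts without 74A3 were added after seeing the data. Members, gene lists and tests were chosen with earlier results of these data known. The genes named from each list were those called, up to 4 by adjusted p, and the most abundant, of which a selection is given.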

Additional observations from a re-analysis of the deposited data

Results flagged for a closer look

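The genotype effect on Lifr differed between materials by the interaction test, with a log2 difference of -1.70 between progenitors and muscle lysate (SE 0.32, adjusted p = 0.0193 in edgeR). The call was lost without 72B8, 74A1, 73A7, 71B4 or 71B5, each left out in turn, with adjusted p-values up to 0.154. Its genotype effect was -1.90 in progenitors and -0.24 in muscle. The Lifr range was 48.5 to 59.8 CPM in WT/flox and 144.3 to 231.6 CPM in WT progenitors.

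Kdr, the vascular endothelial growth factor receptor on the endothelial marker list, was called in the same test with a log2 difference of 4.62 (SE 0.56, adjusted p = 0.00166 in edgeR). It had 168, 88.9 and 117 CPM in WT/flox progenitors 74A1, 72B7 and 74A3, against 9.48, 2.64 and 7.82 CPM in WT progenitors 72B8, 74A2 and 73C3. In muscle it was at 41.4 to 45.1 CPM in WT/flox and 40.6 to 76.4 CPM in WT. Pecam1, which encodes CD31, was at 5.20 to 6.85 CPM in WT/flox and 2.31 to 9.88 CPM in WT progenitors, and the part of endothelial RNA in the Kdr values was not tested.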

How the results depend on the processing

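In progenitors Lifr was called in all 13 alternatives (log2 fold change -2.09 to -1.78, adjusted p 4.41e-15 to 0.0127). Genes called numbered 454, and 755 with DESeq2, 491 with the replicate block and 262 to 483 on leaving out 1 library (262 without 74A3, 266 without 72B7). Adam17 kept its call in 6 of 13. In muscle the 92 calls became 54 by library totals, 139 without a low-count filter, 267 with DESeq2, 178 with the replicate block and 0 to 239 on leaving out 1 library. They were 0 without 71B5 (1023 genes at an unadjusted p below 0.05), 25 without 71B4, 207 without 73A7 and 239 without 73A5. Muscle members called were 1 with DESeq2, 1 with the replicate block and 0 to 1 on leaving out 1 library, Il6ra in each case (block 1.53, adjusted p = 6.96e-04). The replicate block uses the authors' replicate numbers, for which pairing is undecided. Under it muscle Socs3 had an adjusted p of 0.00248 in edgeR. The 106 interaction calls became 272 with DESeq2 and 54 to 114 on leaving out 1 library. Interaction members called ranged over 0 to 1 on leaving out 1 library, and Lifr was called in 11 of 16.

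Some fold changes that did not pass the test changed sign. In progenitors Osmr was -0.0060 by library totals, and Socs3 was 0.21 with limma voom and 0.20 with the replicate block. By library totals Cntfr in WT/flox progenitors against muscle was 0.31, and the Clcf1 interaction -0.11. Leaving out 1 library in progenitors gave -0.073 to 0.29 for Lif, -1.41 to 0.46 for Il6, -0.17 to 0.17 for Osmr, -0.46 to 0.41 for Socs3 and -0.071 to 0.49 for Il6ra. In muscle it gave -0.50 to 0.077 for Lifr, -0.15 to 0.29 for Il11ra1, -0.35 to 0.030 for Adam17, -0.12 to 0.27 for Il6st, -0.030 to 0.63 for Osmr and -1.31 to 0.25 for Clcf1. For the interaction it gave -0.89 to 0.63 for Clcf1 and -0.64 to 0.058 for Osmr. Of all values recomputed, 843 kept direction and side of the threshold or, as counts of calls, stayed within 1.5 times. Of the rest, 27 changed sign, 17 lost a call and 13 gained one, and 24 counts of calls moved by over 1.5 times. The cause of these shifts was not tested. With 2 WT lysates, muscle calls rest on few libraries, and Il6, Lif and Cntf had too few counts there to test.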

Other observations

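Other genes of the pathway differed between progenitors and muscle in the joint fit. Ctf1, the cardiotrophin ligand that binds Lifr, was lower in progenitors, at 0.305 ± 0.283 CPM in WT/flox progenitors and 18.9 ± 0.978 CPM in WT/flox muscle (SD, n = 3 each). In WT it was at 0.379 ± 0.265 CPM in progenitors (n = 3) and 17.0 ± 0.386 CPM in muscle (n = 2), a log2 fold change of -5.43 (SE 0.42, adjusted p = 3.02e-08 in edgeR). Lif, which uses the same chains, lay the other way round in both genotypes. Over all genes in WT, 38.6% were called higher and 37.5% lower in progenitors. Of the 13 listed regulators of Il6 tested in WT, 12 were higher and 0 lower. They include inhibitors (Nfkbia, Zc3h12a and Zfp36) as well as Il1r1, the interleukin-1 receptor (log2 fold change 4.22, SE 0.23), and Nfkbiz (4.98, SE 0.52).

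Of 12 feedback inhibitors in WT, 5 were higher and 3 lower in progenitors, not far from the shares over all genes. Socs3 was higher there (log2 fold change 7.50, SE 0.79, adjusted p = 1.56e-06 in edgeR), while Socs7 was lower at 27.7 ± 1.33 CPM in WT progenitors (n = 3) and 137 ± 26.2 CPM in WT muscle (n = 2). Of 19 STAT3 targets tested in WT, 9 were higher and 4 lower in progenitors, which is likewise read against those shares, the lower ones being Mcl1, Lrg1, Hp and Vegfa. Socs3, Zfp36 and Junb are also on the dissociation list, whose counts were higher in all progenitor libraries.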
